A study of Mus musculus with 16 samples.

Results

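The direct comparison of AID-Yeats2 with Supt7l-/- mouse embryonic stem cells is described here, gene by gene, in newly made RNA. Members were chosen by rule: autosomal genes (chromosomes 1 to 19) with enough reads for the test in the libraries of project 2, which left 14001 autosomal genes of the 14513 tested in that project. The contrast used 4 of the 16 libraries of the series. AID-Yeats2 stands for 2 clones in which Yeats2 carries an auxin-inducible degron (AID), a tag that lets auxin drive the loss of the protein. Supt7l-/- stands for 2 knockout clones of Supt7l. The 2 WT lines of the same project served to estimate the spread and to show on which side of WT each group lay. WT replicate 2 overexpresses Tir1 and BirA (Tir1 is the plant receptor that auxin degrons need) and WT replicate 1 does not. The labels do not say whether the Supt7l-/- clones hold Tir1. All lines, WT included, are E14 cells, kept in serum with CHIR99021 and PD0325901 beside leukaemia inhibitory factor, and all had auxin for 24 h. RNA made in the last 15 min was labelled with 4-thiouridine (4sU) and pulled down, with labelled S. pombe cells added as a spike-in.

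SAGA and ATAC are coactivator complexes that acetylate histones at promoters and enhancers. They share an acetyltransferase module with Kat2a or Kat2b and Tada3, and differ in the rest: Yeats2, a reader of acylated histones, belongs to ATAC, and Supt7l, a histone-fold protein, to the core of SAGA. SAGA also carries a deubiquitinase module around Usp22, and in yeast its core delivers the TATA-binding protein. The contrast therefore sets a lesion of one complex directly against a lesion of the other.

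The AID-Yeats2 libraries held 9713069 and 9790639 mouse gene counts, the Supt7l-/- libraries 8684869 and 9459757, and the WT libraries 10542251 and 9488959. One non-coding gene, Gm26917, took 4.25% to 7.22% of the counts of a library. Levels are given as CPM, read counts scaled to the effective size of the library. For the summed markers of this paragraph they are scaled to its total mouse counts instead. Pluripotency markers (6 genes analysed) summed to 2930 and 2900 CPM in AID-Yeats2 clones, 2470 and 2400 CPM in Supt7l-/- clones, and 2680 and 2840 CPM in WT lines. Fibroblast markers, which would mark feeder cells, summed to 11.3 and 1.12 CPM in AID-Yeats2 clones, 1.61 and 1.69 CPM in Supt7l-/- clones, and 7.11 and 7.48 CPM in WT lines. The 3 trophectoderm markers summed to 8.65 and 9.70 CPM in AID-Yeats2, 15.9 and 15.4 CPM in Supt7l-/-, and 9.49 and 8.11 CPM in WT. Over autosomal genes, log2 levels of the clones of a group had Pearson correlations of 0.993 in AID-Yeats2 and 0.992 in Supt7l-/-, and 0.989 in WT.

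Yeats2 (chromosome 16) had 109 and 188 CPM in AID-Yeats2 clones, 248 and 245 CPM in Supt7l-/- clones, and 242 and 256 CPM in WT lines. Both AID-Yeats2 clones lay below all other libraries, clone 1 most. The log2 fold change was -0.73 ± 0.29 (SE) and did not pass the test (edgeR's quasi-likelihood test with Benjamini-Hochberg adjustment over all genes tested, the source of every adjusted p of a gene unless another tool is named, adjusted p = 0.216). Scaled by the spike-in it did pass (log2 fold change -0.83, adjusted p = 0.00947). The degron acts on the protein, so these RNA levels do not check its loss. Supt7l (chromosome 5) had 13.8 and 16.6 CPM in AID-Yeats2 clones, 8.87 and 14.1 CPM in Supt7l-/- clones, and 13.9 and 14.3 CPM in WT lines. The groups overlapped, and the adjusted p was 0.198. RNA of a knocked-out gene can still be made where the lesion lies in the coding sequence, so the label is not tested by these values. The contrast called 16.3% of all autosomal genes tested. Of 17 genes tested within 500 kb of Yeats2, Abcc5 and Eif2b5 were higher in AID-Yeats2 and B3gnt5 and Ap2m1 lower. Of 22 within 500 kb of Supt7l, Cad was higher and Ppm1g, Nrbp1 and Babam2 lower.

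Some of the contrast followed chromosome position, which was noticed after the values were seen. On distal chromosome 14, from 63.5 Mb on (mm10), 153 of 175 genes had a negative log2 fold change and the median was -0.55. On distal chromosome 17, from 74 Mb on, 75 of 76 genes had a positive one and the median was 0.95. Set against the mean of the WT lines, the median gene of distal chromosome 17 stood at 0.35 and 0.35 log2 in AID-Yeats2 clones and -0.57 and -0.55 in Supt7l-/- clones, with WT replicate 1 at -0.33 and WT replicate 2 at 0.33. On distal chromosome 14 the AID-Yeats2 clones stood at -0.27 and -0.24, the Supt7l-/- clones at 0.30 and 0.30, WT replicate 1 at 0.25 and WT replicate 2 at -0.25. In both parts the AID-Yeats2 clones lay beside WT replicate 2 and the Supt7l-/- clones beside WT replicate 1. The AID-Zzz3 clones of project 3 lay on the side of its WT replicate 2 too, at -0.30 and -0.27 on distal chromosome 14 and at 0.42 and 0.39 on distal chromosome 17. In project 1 all 4 libraries lay within 0.0152 of 0. DNA copy number was not measured, and the part it has in these values was not tested.

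Of the 251 genes in both parts 99 were called, 39.4%, against 15.9% of the 13750 genes outside them. Ppp2r2a, a regulatory subunit of protein phosphatase 2A on chromosome 14, had 261 and 274 CPM in AID-Yeats2, 719 and 723 CPM in Supt7l-/-, and 676 and 502 CPM in WT. Tpt1, an abundant translationally controlled protein of the same part, had 35.5 and 36.4 CPM in AID-Yeats2, 74.8 and 78.6 CPM in Supt7l-/-, and 58.2 and 46.3 CPM in WT. Epas1, which encodes the hypoxia factor HIF-2α on chromosome 17, had 43.8 and 39.7 CPM in AID-Yeats2, 22.3 and 18.9 CPM in Supt7l-/-, and 26.2 and 29.5 CPM in WT. Dhx57, a helicase of the same part of chromosome 17, had 41.5 and 44.0 CPM in AID-Yeats2, 19.2 and 22.1 CPM in Supt7l-/-, and 30.3 and 40.8 CPM in WT. These 4 genes were picked after their values were seen. Among the gene lists below, leaving out both parts changed only the count for RNA polymerase II and Mediator subunits (42 tested, 1 higher), where 2 were lower with Med4 of chromosome 14 and 1 without it.

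**Figure D1:**
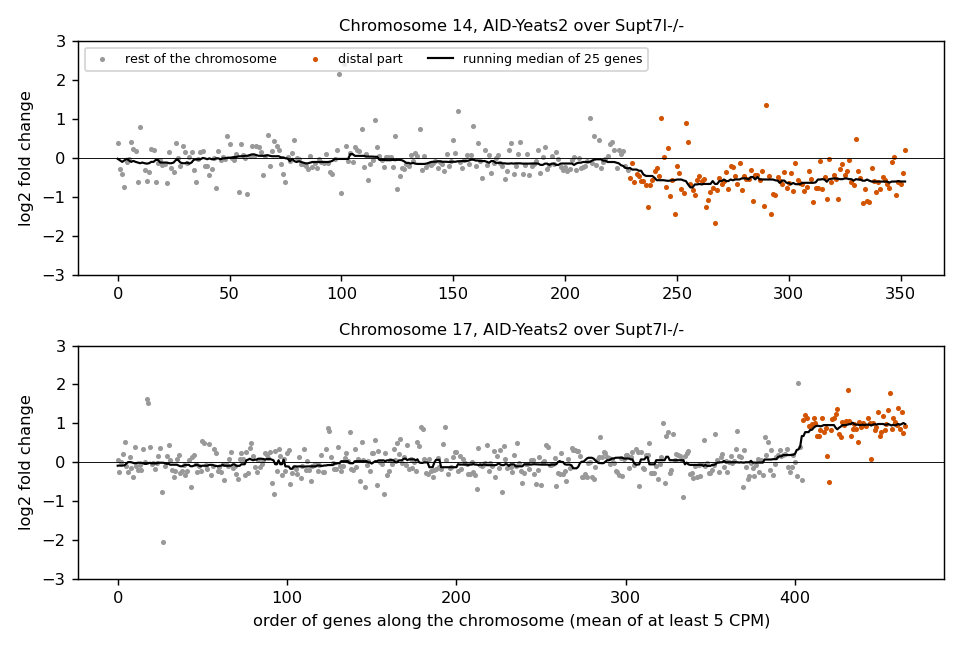
Log2 fold change of AID-Yeats2 over Supt7l-/- for genes of at least 5 CPM, in their order along chromosome 14 (top) and chromosome 17 (bottom), with the distal parts in orange and a running median of 25 genes as a line. The line leaves 0 at the start of each distal part, downward on chromosome 14 and upward on chromosome 17.

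Outside the autosomes, 7 genes of the Y chromosome were at or near 0 in both Supt7l-/- clones, which was noticed after the values were seen. Of 9 genes tested on this chromosome 8 were called higher in AID-Yeats2. Counts summed over the whole chromosome were 49167 and 50259 in AID-Yeats2 clones, 18597 and 20302 in Supt7l-/- clones, and 38743 and 46904 in WT lines. Reads were thus still counted to other genes of it in Supt7l-/- clones. Ddx3y, an RNA helicase, had 103 and 115 CPM in AID-Yeats2 clones, 0 and 0 CPM in Supt7l-/- clones, and 95.1 and 135 CPM in WT lines. Uty, a histone demethylase homologue, had 483 and 550 CPM in AID-Yeats2, 0.455 and 0.105 CPM in Supt7l-/-, and 431 and 608 CPM in WT. Loss of the chromosome from these clones and silence of its genes cannot be told apart here. No sex-linked gene enters the counts that follow.

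The contrast called 1242 autosomal genes higher in AID-Yeats2 than in Supt7l-/- (8.87% of those tested) and 1037 lower (7.41%), at an adjusted p under 0.05. In the same fit, 7.25% of genes were called in AID-Yeats2 against WT (555 higher, 3.96%, and 460 lower, 3.29%) and 3.26% in Supt7l-/- against WT (185 higher, 1.32%, and 272 lower, 1.94%). Most differences were small: the median log2 fold change was 0.67 among genes called higher and -0.51 among those called lower, and 344 and 124 of them differed by at least 2-fold. The clones of both groups did not overlap in 61.8% of all genes tested, so a clean separation of 2 and 2 clones is common here and sets no gene apart. Left out in turn, each clone lowered the counts: 421 higher and 223 lower without AID-Yeats2 replicate 1, 623 and 397 without AID-Yeats2 replicate 2, 478 and 318 without Supt7l-/- replicate 1, and 403 and 312 without Supt7l-/- replicate 2. Without WT replicate 1 there were 1989 and 1954, and without WT replicate 2 there were 1998 and 1927. Scaled by the spike-in there were 309 higher (2.21% of genes tested) and 382 lower (2.73%), in all 4.94%, so that higher genes were 44.7% of the calls in place of 54.5%. That scaling moved the median over all genes to -0.15, where TMM scaling on mouse genes gave -0.01.

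**Figure D2:**
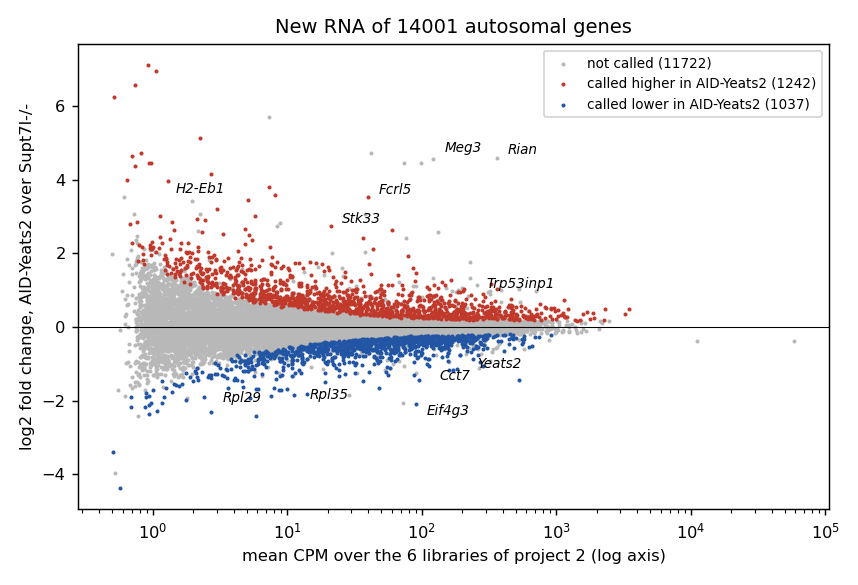
Log2 fold change of AID-Yeats2 over Supt7l-/- against mean CPM over the 6 libraries of project 2 (log axis), 1 point a gene, with called genes in red (1242 higher) and blue (1037 lower). Genes called higher reach larger fold changes than genes called lower, while Meg3 and Rian lie far above 0 without a call.

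Called genes differed in which lesion stood further from WT. Among the 1242 higher genes AID-Yeats2 was further from WT in 598 (48.1%), and WT lay between both groups in 989. Their median log2 fold change was 0.32 in AID-Yeats2 against WT and -0.30 in Supt7l-/- against WT. Of these genes 363 were also called higher in AID-Yeats2 than in WT and 222 called lower in Supt7l-/- than in WT, with 33 in both sets and 690 in neither. Among the 1037 lower genes AID-Yeats2 was further from WT in 636 (61.3%), with 317 called against WT in AID-Yeats2, 96 in Supt7l-/- and 6 in both. Their median log2 fold change against WT was -0.30 in AID-Yeats2 and 0.19 in Supt7l-/-. Both comparisons share the WT libraries, so these values stand side by side without a test. The WT lines also differed in the direction of the contrast: 66.7% of the higher genes and 34% of the lower genes were higher in WT replicate 2 than in WT replicate 1, against 49.1% of genes not called. That difference was on the same side and at least 0.5 times as large as the contrast in 259 of the higher genes (20.9%) and 237 of the lower genes (22.9%). Among genes not called the share was 41.1%, and among all genes tested 37.9%. These shares cannot be compared, because the limit is set by the size of the contrast. The median absolute log2 fold change was 0.67 and 0.51 in the called genes, and 0.18 in genes not called. The labels do not say whether Supt7l-/- clones hold Tir1, so a part from Tir1 and BirA in these 259 and 237 genes was not tested.

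Among called autosomal protein-coding genes with a full symbol, at least 1 CPM on average, separated clones and the same sign under spike-in scaling, the largest rises were of genes with little RNA in Supt7l-/- clones. Fcrl5, an Fc receptor-like protein of B cells, had 101 and 71.4 CPM in AID-Yeats2 clones, 7.73 and 7.16 CPM in Supt7l-/- clones, and 20.8 and 30.9 CPM in WT lines. WT lay between the groups, which did not overlap (log2 fold change 3.53 ± 0.28 SE, adjusted p = 0.000628). Stk33, a serine/threonine kinase, had 44.6 and 38.3 CPM in AID-Yeats2, 6.71 and 5.68 CPM in Supt7l-/-, and 15.0 and 16.2 CPM in WT, with the same order (log2 fold change 2.74 ± 0.15 SE, adjusted p = 5.75e-07). H2-Eb1, a chain of the class II histocompatibility molecule, had 12.6 and 9.14 CPM in AID-Yeats2, 1.36 and 0.632 CPM in Supt7l-/-, and 2.90 and 3.95 CPM in WT (3.44 ± 0.34 SE). Tbx21, the T-bet transcription factor of T helper cells, had 4.23 and 4.26 CPM in AID-Yeats2, 0.569 and 0.526 CPM in Supt7l-/-, and 1.45 and 1.71 CPM in WT (2.93 ± 0.40 SE). Cyp19a1 (aromatase, which makes oestrogen), Ddx60 (an antiviral helicase), Prss42 (a serine protease) and Cdkl4 (a kinase gene within the distal part of chromosome 17) had log2 fold changes of 3.20, 2.91, 2.59 and 2.65. These 8 genes kept the call in every other setting that tested them. Spaca7, a sperm acrosome gene (3.00), and Slc11a1, a metal transporter of phagocytes (2.63), lost it without AID-Yeats2 replicate 1, and Spaca7 also without AID-Yeats2 replicate 2 or Supt7l-/- replicate 1.

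The largest falls of that kind included genes on either side of WT. Eif4g3, which holds the initiation factors of translation together, had 22.1 and 29.6 CPM in AID-Yeats2 clones, 98.8 and 121 CPM in Supt7l-/- clones, and 122 and 147 CPM in WT lines. Only the AID-Yeats2 clones stood low (log2 fold change -2.09 ± 0.17 SE, adjusted p = 0.000192). Actn2, a muscle α-actinin, was likewise lowest in AID-Yeats2, with 2.89 and 2.84 CPM, against 9.44 and 11.3 CPM in Supt7l-/- and 16.4 and 24.5 CPM in WT (-1.85 ± 0.26 SE). Anxa3, a membrane-binding annexin, had 7.85 and 6.90 CPM in AID-Yeats2, 30.1 and 21.9 CPM in Supt7l-/-, and 10.3 and 6.84 CPM in WT. Setd7, a lysine methyltransferase, had 4.96 and 4.67 CPM in AID-Yeats2, 14.9 and 16.7 CPM in Supt7l-/-, and 7.73 and 4.81 CPM in WT. For both of these genes the Supt7l-/- clones stood apart and AID-Yeats2 lay near WT (-1.81 ± 0.21 and -1.72 ± 0.22 SE). Those 4 genes kept the call in every other setting that tested them. The other 6 falls named by the rule (Sh3tc2, Sfta2, Bdkrb2, Crym, Steap2 and Usp17le, with log2 fold changes of -2.42 to -1.70) lost it when any one of the 4 mutant libraries was left out.

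Among genes of other types, the snoRNA gene Gm23787 of the Meg3 cluster on chromosome 12 (log2 fold change 5.14) and the non-coding genes Gm16499 (4.15) and Gm12374 (3.97) were the largest rises among called autosomal genes of at least 1 CPM on average, with separated clones and the same sign under spike-in scaling. Gm16499 had 4.75 and 5.38 CPM in AID-Yeats2, 0.341 and 0.211 CPM in Supt7l-/-, and 3.58 and 2.03 CPM in WT. Gm38804 (-2.30), Gm17767 (-2.16) and Gm48939 (-1.99) were the largest falls under the same limits. Gm16499 and Gm12374 kept the call in every other setting that tested them. Gm38804 and Gm17767 lost it when any single library of the 4 mutant libraries was left out. Gm48939 lost it without AID-Yeats2 replicate 1, and Gm23787 without Supt7l-/- replicate 2. Called genes under 1 CPM, several of them with larger fitted changes, are not ranked here. Calls were made among 16.6% of 12280 protein-coding genes, 17.5% of 653 lincRNA genes and 12.3% of 431 antisense genes.

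Of the gene lists, those of ribosomal proteins had the most members lower in AID-Yeats2. Of 42 genes of the large subunit tested, 27 were lower and 0 higher, with a median log2 fold change of -0.63 against -0.01 over all genes tested. Of 32 genes of the small subunit, 13 were lower and 0 higher, with a median of -0.30. Over all genes tested 7.41% were called lower and 8.87% higher. The difference lay on the AID-Yeats2 side: the median was -0.78 in AID-Yeats2 against WT and -0.12 in Supt7l-/- against WT for the large subunit, and -0.36 and -0.11 for the small one. By clone, the median gene of the large subunit stood at -0.84 and -0.68 log2 in AID-Yeats2 and at -0.05 and -0.19 in Supt7l-/- relative to the WT mean, with WT lines at -0.11 and 0.11. Under spike-in scaling 24 and 11 genes were lower, with medians of -0.75 and -0.44 beside -0.15 for all genes. Leaving out AID-Yeats2 replicate 1 or Supt7l-/- replicate 1 left 17 lower genes of the large subunit each. Many ribosomal protein genes have processed pseudogenes that can share their reads, so single values are uncertain.

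The stretches before the start of 4 genes of the large subunit, those with the smallest p, show what kind of promoter these genes have. Each is 150 bases long and ends at the base before the 5'-most RefSeq start (GRCm38.p6). The letters CCGGAAG or their reverse complement CTTCCGG, an example of the sites that ETS factors bind, are in capitals. They were searched on both strands as this exact run. Other forms of such sites were not searched, so a stretch without capitals may still hold them. Rpl35 lies at chr2:39005132-39005281, minus strand, Rpl38 at chr11:114668430-114668579, plus strand, Rpl37a at chr1:72711110-72711259, plus strand, and Rpl9 at chr5:65391432-65391581, minus strand.
Rpl35: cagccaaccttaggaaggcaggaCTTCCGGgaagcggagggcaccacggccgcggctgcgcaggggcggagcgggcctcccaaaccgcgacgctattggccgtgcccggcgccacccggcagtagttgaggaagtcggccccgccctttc
Rpl38: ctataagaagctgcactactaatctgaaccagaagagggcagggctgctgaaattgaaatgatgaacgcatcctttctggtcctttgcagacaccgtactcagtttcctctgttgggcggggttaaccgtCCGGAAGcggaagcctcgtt
Rpl37a: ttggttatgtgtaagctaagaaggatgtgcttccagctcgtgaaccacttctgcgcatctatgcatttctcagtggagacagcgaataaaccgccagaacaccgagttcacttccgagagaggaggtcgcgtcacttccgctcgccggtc
Rpl9: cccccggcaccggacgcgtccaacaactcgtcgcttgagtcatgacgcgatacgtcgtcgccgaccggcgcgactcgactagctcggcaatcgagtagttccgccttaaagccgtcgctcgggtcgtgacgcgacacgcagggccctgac
The letters occur once before Rpl38, from 20 bases before its start, and once before Rpl35, from 127 bases before, and not in the other sequences shown. They occur in the same window of 5.69% of 27025 mouse promoters of the table. A match is a description of letters, not of binding. Because the promoter table held only 73.1% of the genes tested, shares over gene groups were void and are not given.

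Rpl38, a small protein of the large subunit known in mice for its part in the translation of Hox mRNAs, had 21.4 and 21.2 CPM in AID-Yeats2 clones, 49.7 and 49.2 CPM in Supt7l-/- clones, and 47.6 and 54.2 CPM in WT lines. Only AID-Yeats2 was low (log2 fold change -1.21 ± 0.11 SE, adjusted p = 1.55e-05). Rpl35, a protein near the exit of the ribosomal tunnel, had 15.1 and 20.4 CPM in AID-Yeats2, 46.5 and 51.1 CPM in Supt7l-/-, and 40.2 and 48.0 CPM in WT (-1.46 ± 0.14 SE). Rpl9 had 23.3 and 31.1 CPM in AID-Yeats2, 66.2 and 61.5 CPM in Supt7l-/-, and 68.8 and 75.1 CPM in WT (-1.23 ± 0.12 SE). Rpl37a had 15.6 and 16.3 CPM in AID-Yeats2, 42.5 and 33.8 CPM in Supt7l-/-, and 37.9 and 44.6 CPM in WT (-1.25 ± 0.14 SE). In each the AID-Yeats2 clones were apart from the other 4 libraries, which overlapped or lay close. In the small subunit, Rps24 had 88.7 and 96.7 CPM in AID-Yeats2, 171 and 182 CPM in Supt7l-/-, and 181 and 222 CPM in WT (-0.93 ± 0.10 SE). Rps3a1 fell in the same way (-0.72). The largest fall of the family was that of Rpl29, with 2.79 and 3.55 CPM in AID-Yeats2 and 10.9 and 9.05 CPM in Supt7l-/- (-1.65). The family was not uniform: Rpl4, with 254 and 242 CPM in AID-Yeats2, 235 and 237 CPM in Supt7l-/- and 230 and 277 CPM in WT, was not called (0.07, adjusted p = 0.607), nor was Rps13 (0.12, adjusted p = 0.523). Rpl29, Rpl4 and Rps13 were picked after their values were seen.

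**Figure D3:**
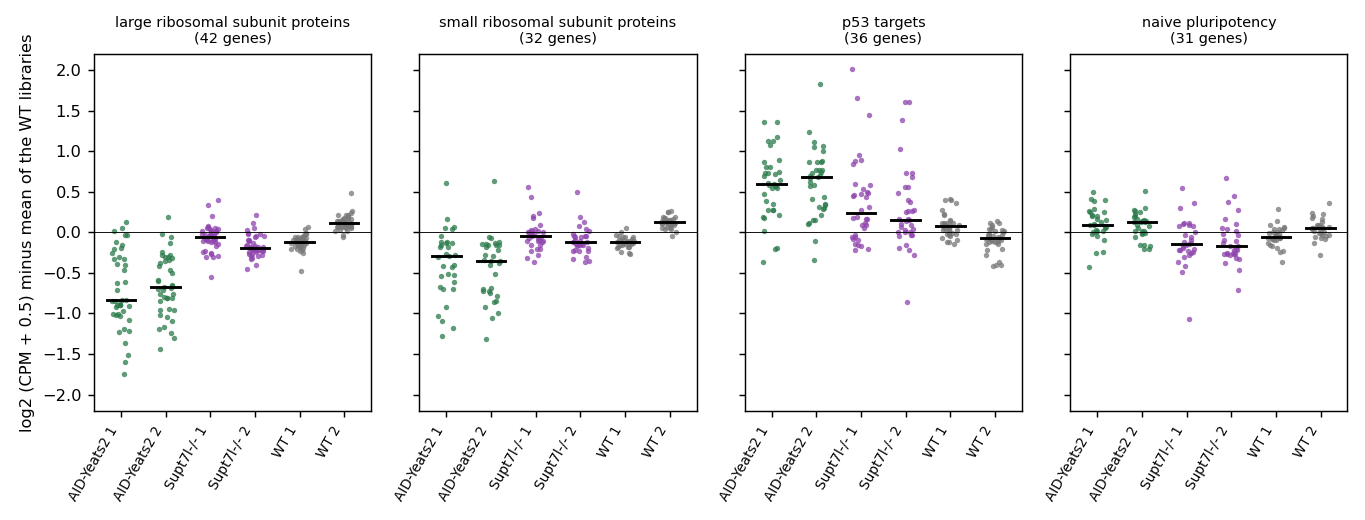
Log2 (CPM + 0.5) of each gene minus its mean over the WT lines, for 4 gene lists in the 2 AID-Yeats2 clones (green), the 2 Supt7l-/- clones (purple) and the 2 WT lines (grey), with the median of a library as a bar. Ribosomal protein genes are low in both AID-Yeats2 clones and near WT in Supt7l-/- clones, p53 targets are highest in AID-Yeats2, and naive pluripotency genes lie slightly above WT in AID-Yeats2 and slightly below it in Supt7l-/-.

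Some other genes of protein synthesis and folding were called, where 16.3% of all genes tested were called (8.87% higher and 7.41% lower). Of 48 translation factors 10 were lower and 3 higher, with a median of -0.11. Eif3d, a cap-binding subunit of initiation factor eIF3, had 27.7 and 28.4 CPM in AID-Yeats2, 52.1 and 58.7 CPM in Supt7l-/-, and 57.5 and 57.0 CPM in WT (a log2 fold change of -0.98 ± 0.10 SE, adjusted p = 4.05e-05). Eif2b5, the catalytic subunit of the exchange factor eIF2B and a neighbour of Yeats2, rose: 105 and 109 CPM in AID-Yeats2, 55.1 and 55.6 CPM in Supt7l-/-, and 76.8 and 103 CPM in WT (0.95 ± 0.12 SE). Under spike-in scaling 3 translation factors were lower and 1 higher. Without 1 of the 4 mutant libraries, the 10 lower factors became 2 to 4: 4 without AID-Yeats2 replicate 1, 3 without AID-Yeats2 replicate 2, 2 without Supt7l-/- replicate 1 and 3 without Supt7l-/- replicate 2. Without either WT line they were 18. Of 22 heat shock and chaperonin genes 5 were lower, all of them subunits of the CCT chaperonin, which folds actin and tubulin, and 2 were higher (Hsph1 and, named after its value was seen, Hsp90ab1). Cct7 had 62.8 and 66.7 CPM in AID-Yeats2, 135 and 132 CPM in Supt7l-/-, and 137 and 144 CPM in WT (-1.04 ± 0.08 SE, adjusted p = 6.27e-06), and Cct4 fell by 0.76. Among 40 spliceosome and SR protein genes 7 were lower and 1 higher. The lowest was Snrpb, a core protein of spliceosomal particles, with 25.6 and 25.7 CPM in AID-Yeats2, 50.6 and 51.6 CPM in Supt7l-/-, and 51.5 and 58.1 CPM in WT (-0.99 ± 0.10 SE). Under spike-in scaling 2 CCT genes and 1 spliceosome gene were lower. With 1 mutant library left out the 5 CCT calls became 2 each time, and the 7 lower spliceosome genes became 1 without AID-Yeats2 replicate 1 and 2 without AID-Yeats2 replicate 2, Supt7l-/- replicate 1 or Supt7l-/- replicate 2. Lower counts were 2 of 72 for mitochondrial ribosomal proteins (2 higher), 4 of 71 for the respiratory chain (0 higher), 2 of 32 for the proteasome (1 higher), 5 of 52 for ribosome biogenesis (3 higher) and 4 of 20 for aminoacyl-tRNA synthetases (0 higher). Each of these 5 lower counts became 0 or 1 under spike-in scaling and without AID-Yeats2 replicate 1, and that of ribosome biogenesis became 16 without either WT line. Mitochondrial ribosomal protein Mrpl17 was lower, at 25.6 and 24.1 CPM in AID-Yeats2, 41.6 and 43.2 CPM in Supt7l-/- and 39.7 and 43.9 CPM in WT (-0.77 ± 0.11 SE). Mrpl17 kept the call in every other setting that tested it, and Mrps16, the other member called lower (-0.63), did not.

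Targets of p53, the factor that answers DNA damage and other stress, were the list with the most members higher in AID-Yeats2. Of 36 tested, 18 were higher and 2 lower, with a median log2 fold change of 0.36. Over all genes tested 8.87% were called higher and 7.41% lower. Both lesions stood above WT, with medians of 0.66 in AID-Yeats2 and 0.19 in Supt7l-/-. Trp53inp1, a promoter of p53-dependent death and autophagy, had 356 and 349 CPM in AID-Yeats2 clones, 214 and 200 CPM in Supt7l-/- clones, and 186 and 197 CPM in WT lines (0.77 ± 0.07 SE, adjusted p = 1.55e-05). Ccng1, cyclin G1, had 136 and 131 CPM in AID-Yeats2, 74.8 and 76.4 CPM in Supt7l-/-, and 72.0 and 84.3 CPM in WT (0.82 ± 0.09 SE). Ei24, an autophagy protein (0.72), and Gtse1, which binds p53 in G2 (0.60), rose likewise. In these genes the AID-Yeats2 clones were high and Supt7l-/- lay near WT. Bax, a pore-forming inducer of apoptosis, had 40.5 and 38.7 CPM in AID-Yeats2, 25.1 and 23.7 CPM in Supt7l-/-, and 26.6 and 31.5 CPM in WT (0.70 ± 0.12 SE). Cdkn1a, the cell cycle inhibitor p21, had 102 and 107 CPM in AID-Yeats2, 95.4 and 85.2 CPM in Supt7l-/-, and 82.9 and 84.5 CPM in WT, and was not called (0.21, adjusted p = 0.104). Perp, a membrane protein of apoptosis and desmosomes, was lower, with 5.89 and 5.38 CPM in AID-Yeats2, 17.1 and 12.8 CPM in Supt7l-/-, and 5.31 and 2.78 CPM in WT (-1.40 ± 0.25 SE), so that here Supt7l-/- stood apart. Bax, Cdkn1a and Perp were chosen after their values were seen. Under spike-in scaling 0 of the 18 were called higher and the median was 0.24, beside -0.15 for all genes. They were 12 without AID-Yeats2 replicate 1, 9 without AID-Yeats2 replicate 2, 12 without Supt7l-/- replicate 1 and 10 without Supt7l-/- replicate 2.

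Genes of naive pluripotency, the ground state that leukaemia inhibitory factor and the inhibitors hold, were modestly higher in AID-Yeats2. Of 31 tested, 14 were higher and 2 lower (Dppa4 and Tdh, named after their values were seen), with a median of 0.20. Over all genes tested 8.87% were called higher and 7.41% lower, and the median was -0.01. WT lay between, with medians of 0.12 in AID-Yeats2 and -0.17 in Supt7l-/- against WT. Mybl2, a cell cycle factor of stem cells, had 403 and 438 CPM in AID-Yeats2, 308 and 315 CPM in Supt7l-/-, and 379 and 416 CPM in WT (0.43 ± 0.07 SE, adjusted p = 0.000903). Zfp42 (Rex1) had 535 and 581 CPM in AID-Yeats2, 447 and 441 CPM in Supt7l-/-, and 522 and 533 CPM in WT (0.33 ± 0.06 SE). Sall4, a zinc finger factor (0.48), and Tfcp2l1, a factor downstream of Stat3 (0.30), also rose. In Mybl2, Zfp42 and Tfcp2l1 the Supt7l-/- clones were low while AID-Yeats2 lay near or slightly above WT. The core factors Pou5f1 (44.0 and 39.3 CPM in AID-Yeats2, 40.0 and 36.1 CPM in Supt7l-/-) and Nanog (210 and 213 CPM in AID-Yeats2, 176 and 196 CPM in Supt7l-/-), named here after their values were seen, were not called. Under spike-in scaling 0 were higher. The 14 became 3 without AID-Yeats2 replicate 1, 8 without AID-Yeats2 replicate 2, 3 without Supt7l-/- replicate 1 and 2 without Supt7l-/- replicate 2.

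Signalling and developmental lists gave few calls each, where 16.3% of all genes tested were called (8.87% higher and 7.41% lower). Of 16 Wnt targets 5 were higher and 0 lower, with a median of 0.31, and the median against WT was -0.34 in Supt7l-/- and -0.11 in AID-Yeats2. Fzd5, a Wnt receptor, had 62.1 and 62.2 CPM in AID-Yeats2, 31.7 and 34.4 CPM in Supt7l-/-, and 46.1 and 59.8 CPM in WT (0.91 ± 0.12 SE, adjusted p = 0.000234). It was the one Wnt target called higher under spike-in scaling. The 5 Wnt calls became 1 without AID-Yeats2 replicate 1, AID-Yeats2 replicate 2 or Supt7l-/- replicate 1, and 3 without Supt7l-/- replicate 2. Of 13 immediate-early genes 2 were lower, Atf3 (-1.32) and Jun (-1.54), and 1 higher, Btg1 (0.46), with a median of -0.34. Neither Atf3 nor Jun was called without AID-Yeats2 replicate 1, AID-Yeats2 replicate 2 or Supt7l-/- replicate 1. Atf3 had 3.72 and 3.45 CPM in AID-Yeats2, 10.7 and 7.26 CPM in Supt7l-/-, and 5.41 and 3.21 CPM in WT. Gata3, a trophectoderm factor, had 5.58 and 6.09 CPM in AID-Yeats2, 14.0 and 13.1 CPM in Supt7l-/-, and 6.77 and 4.17 CPM in WT (-1.21 ± 0.22 SE). It makes up most of the 3 summed trophectoderm markers given above, and of the wider trophectoderm list (6 tested, median -0.05) it alone was called. Stk31, a germline kinase-like gene, had 141 and 125 CPM in AID-Yeats2, 59.8 and 52.0 CPM in Supt7l-/-, and 72.6 and 83.0 CPM in WT (1.25 ± 0.10 SE, adjusted p = 8.87e-06), the only germline gene called higher beside Dazl among 18, of which Tdrd12 and Tex14 were lower. Mycl, a Myc paralogue, had 7.64 and 6.09 CPM in AID-Yeats2, 2.05 and 2.21 CPM in Supt7l-/-, and 3.58 and 6.31 CPM in WT (1.68 ± 0.31 SE). Fzd5, Gata3, Stk31 and Mycl kept the call in every other setting that tested them. Of 8 fibroblast genes Fn1 (0.54) and Vim (0.64) were higher, and neither was called without AID-Yeats2 replicate 1 or Supt7l-/- replicate 1. In these, AID-Yeats2 clone 2, whose summed fibroblast markers stood at 1.12 CPM, was also above both Supt7l-/- clones. The part of feeder cells in the Fn1 and Vim values was not tested.

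Cell cycle genes went both ways. Of 44 genes of S phase and replication 7 were higher and 7 lower, with a median of -0.04, and under spike-in scaling 0 were higher and 2 lower. Dut, which keeps uracil out of DNA, had 170 and 166 CPM in AID-Yeats2, 102 and 99.1 CPM in Supt7l-/-, and 128 and 164 CPM in WT (0.74 ± 0.10 SE), and E2f1 rose by 0.70. Ccne2, cyclin E2, had 10.6 and 14.8 CPM in AID-Yeats2, 25.2 and 27.2 CPM in Supt7l-/-, and 25.2 and 30.8 CPM in WT (-1.04 ± 0.16 SE), and E2f8, a repressor of E2F targets, fell by 0.88. So Dut was lowest in Supt7l-/- and Ccne2 in AID-Yeats2. When AID-Yeats2 replicate 1, AID-Yeats2 replicate 2, Supt7l-/- replicate 1 or Supt7l-/- replicate 2 was left out, the 7 higher genes of S phase became 3, 2, 2 and 2 in this order, and the 7 lower ones 1, 4, 1 and 2. Of 37 mitosis genes 6 were higher and 0 lower, so 16.2% were called, beside 16.3% of all genes tested. Their median of 0.12 turned to -0.03 under spike-in scaling, where 0 were called. These 6 became 1, 2, 0 and 1 without the same libraries, and 10 without either WT line. Of 17 genes of DNA methylation 6 were higher, among them Uhrf1, which recruits Dnmt1 (0.56), Trim28 (0.40) and the demethylase Tet3 (0.69), and 2 were lower (Mbd2 and, named after its value was seen, Dnmt1). Under spike-in scaling none of these 17 was called, and the 6 higher became 3, 4, 3 and 1 without the same mutant libraries.

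Of the subunits of the complexes themselves, those of the shared acetyltransferase and deubiquitinase modules were called most often (45.5% of 11, against 16.3% of all genes). Of 7 ATAC subunits tested Wdr5, a histone reader shared with other complexes, was higher (233 and 239 CPM in AID-Yeats2, 179 and 187 CPM in Supt7l-/-, 211 and 251 CPM in WT), and 0 were lower. The ATAC median of 0.11 turned to -0.02 under spike-in scaling, where Wdr5 was not called. Zzz3, named outside the rule as the target of another line of the series, had 429 and 457 CPM in AID-Yeats2 and 409 and 411 CPM in Supt7l-/- and was not called. Of 11 SAGA core subunits 2 were lower. Sf3b3, also a splicing factor, had 290 and 287 CPM in AID-Yeats2, 451 and 456 CPM in Supt7l-/-, and 469 and 516 CPM in WT (-0.65 ± 0.07 SE, adjusted p = 3.35e-05), and Supt20 fell by 0.37. Supt20 was not called without AID-Yeats2 replicate 1 or Supt7l-/- replicate 1. Of 11 subunits of the shared acetyltransferase and the deubiquitinase modules 4 were lower, Atxn7l1 (-0.59), Usp22 (-0.51), Atxn7 (-0.58) and Tada2b (-0.69), and Kat2b was higher (0.21). Under spike-in scaling 2 of the 11 were lower and 0 higher. Atxn7l1 had 71.3 and 81.2 CPM in AID-Yeats2, 113 and 117 CPM in Supt7l-/-, and 105 and 110 CPM in WT. Sf3b3 and Atxn7l1 kept the call in every other setting that tested them, and the other 6 subunits did not: the 4 lower became 2, 2, 2 and 1 without AID-Yeats2 replicate 1, AID-Yeats2 replicate 2, Supt7l-/- replicate 1 and Supt7l-/- replicate 2, and Wdr5 and Kat2b lost the call without any one of these. Of 12 TFIID subunits 0 were called by edgeR and 0 by DESeq2, and 1 was lower at an unadjusted p under 0.05.

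**Figure D4:**
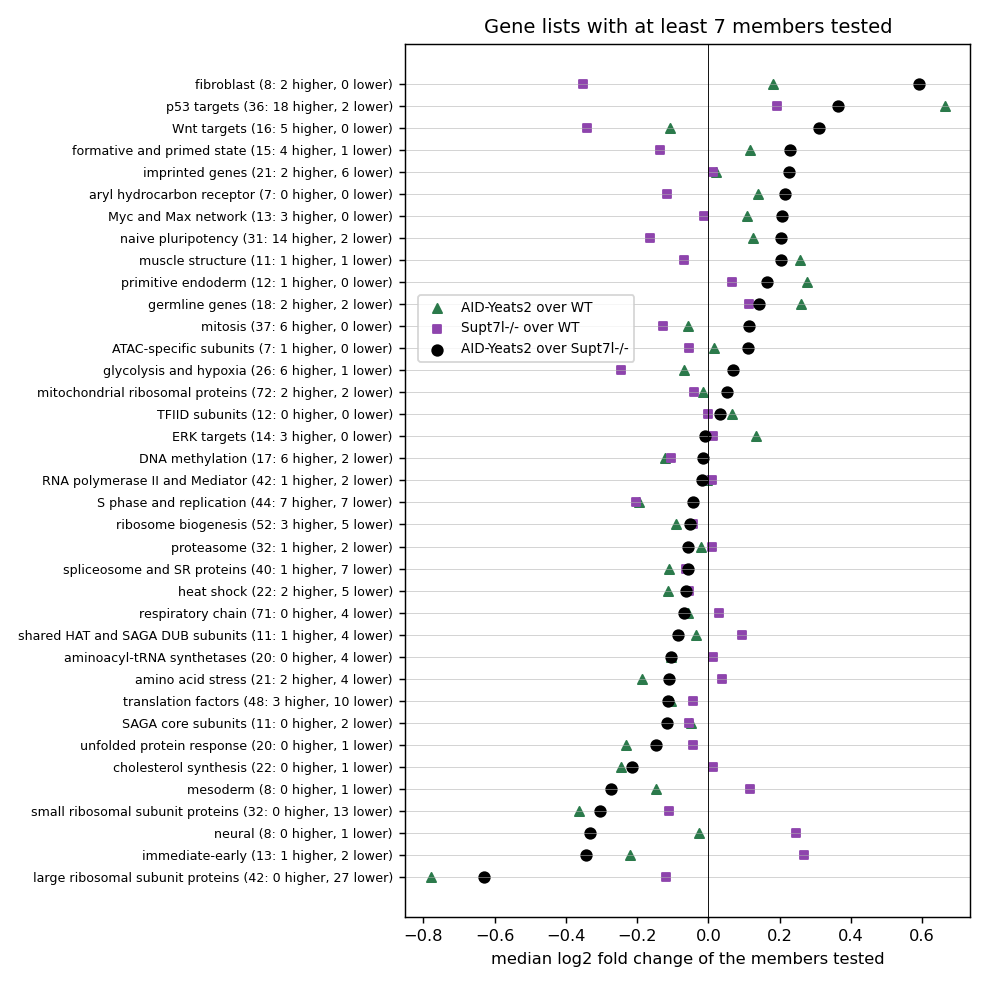
Median log2 fold change of the tested members of each gene list with at least 7 of them, for AID-Yeats2 over WT (triangles), Supt7l-/- over WT (squares) and AID-Yeats2 over Supt7l-/- (circles), with the numbers tested and called in brackets. Ribosomal protein lists lie at the bottom with AID-Yeats2 far from WT, and p53 targets near the top with both lesions above WT.

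Metabolic and stress lists held a few calls, where 16.3% of all genes tested were called (8.87% higher and 7.41% lower). Of 22 cholesterol synthesis genes 20 had a negative log2 fold change (median -0.21) but only Cyp51 was called, where both AID-Yeats2 clones had at most 20.4 CPM, against 30.4 and 29.5 CPM in Supt7l-/- and 27.7 and 28.4 CPM in WT (-0.56 ± 0.12 SE). Of 26 glycolysis and hypoxia genes 6 were higher, with Ldhb, a lactate dehydrogenase subunit, at 43.1 and 48.7 CPM in AID-Yeats2, 25.7 and 25.3 CPM in Supt7l-/-, and 42.8 and 61.6 CPM in WT (0.85 ± 0.16 SE), and Pgam1 was lower (-0.48). The 6 higher became 0 under spike-in scaling, 1 by DESeq2, 1 without AID-Yeats2 replicate 1 or AID-Yeats2 replicate 2, and 0 without Supt7l-/- replicate 1 or Supt7l-/- replicate 2. Of 21 amino acid stress genes 2 were higher and 4 lower, and 0 were called under spike-in scaling. Asns, asparagine synthetase, rose (502 and 517 CPM in AID-Yeats2, 365 and 334 CPM in Supt7l-/-, 415 and 509 CPM in WT), while the amino acid transporter Slc7a5 fell by 0.49. Of 20 unfolded protein response genes 1 was lower, Herpud1, with 4.23 and 3.96 CPM in AID-Yeats2, 9.33 and 7.16 CPM in Supt7l-/-, and 6.57 and 5.34 CPM in WT. Of the genes named here for metabolism and stress, Asns kept the call in each fit that left out 1 mutant library but lost it under spike-in scaling (adjusted p = 0.337), and Cyp51, Ldhb, Pgam1, Slc7a5 and Herpud1 lost it in at least 1.

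The imprinted Meg3 cluster on chromosome 12 gave some of the largest fold changes of the contrast. It was singled out after its values were seen. All 19 genes tested from Gm34081 to Mirg (positions 109493529 to 109749460, mm10) had higher levels in both AID-Yeats2 clones than in either Supt7l-/- clone, and 13 were called higher. Over all genes tested the clones of the groups were separated, in either direction, in 61.8%, and 8.87% were called higher. Of these 19 genes 13 are miRNA or snoRNA genes that lie within the same long transcripts, so they are not separate measurements. Meg3, a maternally expressed long non-coding RNA, had 237 and 225 CPM in AID-Yeats2 clones, 10.9 and 8.63 CPM in Supt7l-/- clones, and 55.4 and 196 CPM in WT lines. Rian had 630 and 699 CPM in AID-Yeats2, 29.1 and 25.8 CPM in Supt7l-/-, and 157 and 630 CPM in WT. AID-Yeats2 lay near WT replicate 2, Supt7l-/- lay below every other library, and WT replicate 1 lay between. The log2 fold changes of 4.57 and 4.60 missed the threshold in the fit of 6 libraries (adjusted p = 0.0676 and 0.072). They passed it by DESeq2 (adjusted p = 2.53e-08 and 1.47e-08) and in edgeR's test with the 4 mutant libraries alone (1.34e-28 and 9.69e-32). In edgeR's test under spike-in scaling Meg3 passed (1.53e-18) and Rian did not (0.0672). With the replicate block neither passed (0.162 and 0.171). The log2 fold changes were 4.56 and 4.60 without WT replicate 1, and 4.57 and 4.60 without WT replicate 2. The WT lines differed from each other. In other WT lines of the series Meg3 had 37.0 and 173 CPM (project 3) and 135 and 170 CPM (project 1). Plagl1, an imprinted zinc finger gene of chromosome 10 that was also picked after its values were seen, showed the same order, with 178 and 229 CPM in AID-Yeats2, 40.0 and 28.3 CPM in Supt7l-/-, and 87.8 and 236 CPM in WT, and missed the threshold as well (2.58, adjusted p = 0.111). Plagl1 passed by DESeq2 (adjusted p = 0.000439) and, in edgeR's test, under spike-in scaling (2.55e-20) and with the 4 mutant libraries alone (0.0206). It did not pass in edgeR's test with the replicate block (0.227). Its log2 fold change was 2.58 without WT replicate 1 and 2.58 without WT replicate 2.

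Of 21 imprinted genes on the list 2 were called higher and 6 lower, where 8.87% of all genes tested were called higher and 7.41% lower. Kcnq1ot1, a paternally expressed antisense RNA, had 399 and 482 CPM in AID-Yeats2, 260 and 277 CPM in Supt7l-/-, and 324 and 374 CPM in WT (0.71 ± 0.10 SE, adjusted p = 0.000773). Nespas, antisense at the Gnas locus, was higher too (0.60), while Gnas was lower, with 24.4 and 20.5 CPM in AID-Yeats2, 45.4 and 42.3 CPM in Supt7l-/-, and 36.4 and 26.2 CPM in WT (-0.97 ± 0.15 SE). The library kit marks strand, per the labels, but the strand setting of the counting is not given in the sources used here, so reads of Gnas and Nespas may be mixed. Gab1 fell by 0.40. Under spike-in scaling 3 of the list were lower and 2 higher. The 6 lower genes became 2 without AID-Yeats2 replicate 1 or Supt7l-/- replicate 2, 3 without Supt7l-/- replicate 1 and 5 without AID-Yeats2 replicate 2, and the 2 higher genes became 7 without WT replicate 1 and 8 without WT replicate 2.

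Called genes were longer than others. The median span was 46.7 kb among genes called higher, 41.2 kb among those called lower and 24.2 kb among genes not called. The share called higher grew from 3.88% of genes of up to 5 kb to 16.9% of genes over 200 kb, and the share called lower was 4.54% and 11.0% in the same bins. Depth moved with it: the median CPM was 29.5 in genes called higher, 46.2 in those called lower and 12.3 in genes not called. The part of depth in the trend was not tested.

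Libraries outside the contrast gave a second view of its genes. AID-Zzz3 is a degron line of another ATAC subunit, compared with the WT lines of project 3. In that comparison 0.984% of all genes tested were called, 0.684% higher and 0.299% lower. Of the 1230 genes called higher in AID-Yeats2 than in Supt7l-/- and tested there, 58 were called higher in AID-Zzz3 than in WT and 1 lower, and 84.4% had a positive log2 fold change. Of the 1025 called lower and tested there, 39 were called lower and 0 higher by edgeR (10 higher at an unadjusted p under 0.05), and 13.4% had a positive log2 fold change. Among genes not called, 49.5% were positive. Outside the distal parts of chromosomes 14 and 17, 84.0% and 14.1% were positive. The counts rested on single clones: without AID-Zzz3 replicate 1 they were 5 higher and 2 lower, without AID-Zzz3 replicate 2 they were 17 and 25, without WT replicate 2 they were 168 and 115, and without WT replicate 1 they were 61 and 52. Positive shares were 70% of the genes called higher and 24.9% of those called lower without WT replicate 1, the line without Tir1 and BirA. The large subunit ribosomal genes had a median of -0.65 in AID-Zzz3 and p53 targets one of 0.61.

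**Figure D5:**
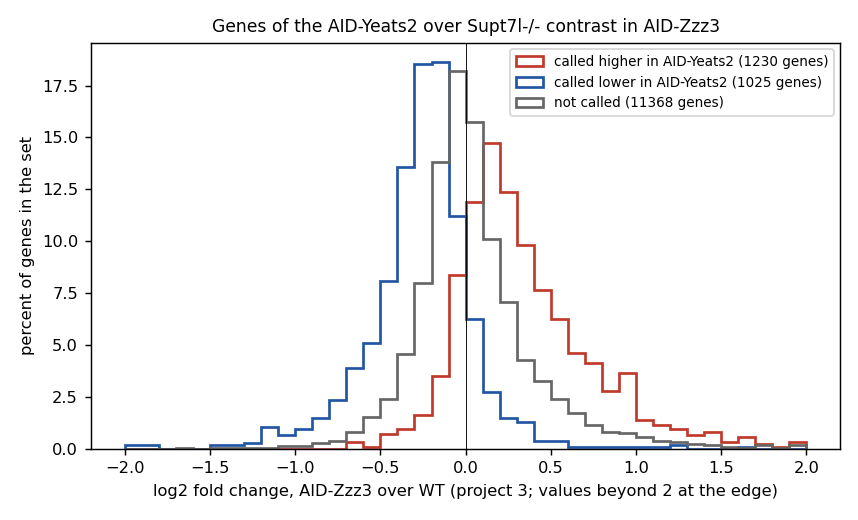
Distribution of the log2 fold change of AID-Zzz3 over WT (project 3) for genes called higher (red, 1230 genes) or lower (blue, 1025 genes) in AID-Yeats2 than in Supt7l-/-, and for genes not called (grey), as the percentage of each set per bin. The red distribution lies to the right of 0 and the blue one to the left, with much overlap.

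AID-Tada3, a degron line of the module that both complexes share, was compared with the WT lines of project 1, where 0.0274% of genes were called. Of the genes called higher in the contrast 3 were called lower there and 0 higher by edgeR (159 and 44 at an unadjusted p under 0.05), and 40.7% were positive. Of the genes called lower, 0 were called in either direction (65 higher and 62 lower at an unadjusted p under 0.05), and 48.0% were positive. Among genes not called in the contrast, 49.4% were positive. Overexpression of Tir1 and BirA, tested over the 6 WT 4sU libraries of all projects, called 1.18% of genes, 0.424% higher and 0.757% lower. Of the genes called higher in the contrast 29 were called higher with Tir1 and BirA and 3 lower. Of those called lower 0 were higher and 16 lower. This comparison shares the WT lines of project 2 with the fit but not with the contrast itself. Positive log2 fold changes were 65.2% of the first set and 38.5% of the second, beside 47.7% of genes not called in the contrast.

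The amount of labelled mouse RNA per spike-in differed by less than the spread between clones. Mouse counts per spike-in count were 4.26 and 5.07 in AID-Yeats2 clones, 4.48 and 5.77 in Supt7l-/- clones, and 6.55 and 6.58 in WT lines. The means were 4.66 ± 0.572 in AID-Yeats2 and 5.12 ± 0.913 in Supt7l-/- (SD, n = 2 each). The log2 difference of -0.13 had an exact two-sided permutation p of 0.667, where the smallest p that 2 against 2 allows is 0.333. Fewer cells and less RNA per cell cannot be told apart in these bulk samples. All p-values measure the spread between clones or lines of E14 cells, of which there were 2 a group. The WT lines of a project differ in Tir1 and BirA, so the spread in the fit of the contrast and in the fits against WT includes this difference. With the 4 mutant libraries alone 2043 genes were called higher and 1768 lower, beside 1242 and 1037 in the fit with WT.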

How the data were processed

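Newly made (4sU) RNA of 6 libraries of project 2 was analysed: 2 AID-Yeats2, 2 Supt7l-/- and 2 WT. The authors deposited raw counts of reads per mouse gene and per S. pombe spike-in gene for each project. Per the submitters' processing notes, the tools used include STAR 2.5.3a, HTSeq 0.6.1p1 and Bowtie2 2.2.8, and the builds mm10 (mouse) and ASM294v2 (S. pombe). The role of each tool is not given in the sources used here. The other 32 columns of values per sample, the normalized ones, were not used. Members and gene lists were chosen with earlier results of these data known.

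Genes passing edgeR's filterByExpr (minimum count 10) were scaled by TMM and tested with edgeR 4.0.16 (R 4.3.3), by the quasi-likelihood test with robust fits, 3 residual degrees of freedom and Benjamini-Hochberg adjustment at 0.05 over all 14513 genes tested. CPM are read counts scaled to the effective library size, or to the total mouse counts for the summed markers. Other projects were fitted apart. No library was left out, and no set test was run. Spike-in sums ranged from 1424672 to 2296779 counts. The script was tested on simulated counts. Promoters came from RefSeq (GRCm38.p6).

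Named genes are Yeats2 and Supt7l, the 10 largest rises and falls among called protein-coding genes with a full symbol, at least 1 CPM, the same sign under spike-in scaling and separated clones, the 3 largest each way among other types, up to 4 called members of each list by p, and every called subunit of ATAC, SAGA or their shared modules. Genes outside this rule are marked where they are given, or were named for their place (neighbours of Yeats2 and Supt7l) or as markers. The alternatives tried were scaling by the spike-in or by DESeq2's size factors, other filters, DESeq2 1.42.0, only the 4 mutant libraries, autosomal genes only, a replicate block, each library left out and, added after the data were seen, the distal parts of chromosomes 14 and 17 left out.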

Additional observations from a re-analysis of the deposited data

How the results depend on the processing

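No called gene of the contrast changed sign in any of the 15 alternatives, and of the 137 called genes that the rule names 37 kept the call in every alternative that tested them, while 80 lost it under spike-in scaling, 30 under DESeq2 and 11 under the replicate block. Beside the 1242 genes called higher and the 1037 called lower, spike-in scaling gave 309 and 382, DESeq2 gave 777 and 568, and the 4 mutant libraries alone gave 2043 and 1768; the cause was not tested. Of the 2279 calls, 588 were shared with spike-in scaling and 1262 with DESeq2. Leaving out single libraries gave 403 to 1998 higher and 223 to 1954 lower. DESeq2 size factors (1265 and 996), no filter (1474 and 1339), at least 50 counts (1204 and 924), autosomal genes alone (1257 and 1035) and leaving out the distal parts of chromosomes 14 and 17 (1202 and 978) stayed within 1.5 times. The replicate block gave 992 and 794. The clone numbers gave no sign of pairing, since deviations of same-numbered clones correlated at 0.03 over genes and only 2 pairs exist. The log2 difference of mouse counts per spike-in count of -0.13 ranged from -0.309 to 0.0593 with 1 library left out, being 0.0593 without Supt7l-/- replicate 2. The genes also called in AID-Zzz3 ranged from 5 to 168 higher and from 2 to 115 lower with 1 library of project 3 left out, against 58 and 39. At 8684869 to 10542251 counts a library and 2 clones a group, genes of a few CPM carry wide errors, and a gene not called is not shown to be equal.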
